A study of Mus musculus with 2 samples.

Results

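Inhibitory checkpoint receptors are surface proteins that restrain an activated T cell, and the 8 receptor genes described here were Pdcd1, Lag3, Havcr2, Tigit, Ctla4, Cd160, Entpd1 and Cd101. They were found by gene symbol in the feature list of 32285 genes, and all 8 were present in both libraries. Single-cell RNA was counted in CD8+ tumor-infiltrating lymphocytes (TIL) from male C57Bl/6J mice, 16 weeks of age in both groups, that carried a transplanted B16 F0 melanoma. One library came from lean mice on normal chow and 1 from obese mice on a western diet. CD8+ cells were enriched with magnetic beads and then sorted on CD8 staining, and the number of mice behind each library was not given in the sources used here. Each unique molecular identifier (UMI) stands for 1 captured transcript.

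The lean library held 2456 cells and 27815785 UMIs after filtering, with a median of 7958 UMIs per cell. The obese library held 2289 cells and 28705830 UMIs, with a median of 9103. Both libraries shared 2 cell barcodes. A UMI of Cd8a or Cd8b1 was present in 96.1% of lean and 96.7% of obese cells, and a UMI of Cd4 in 0.692% and 0.786%. With 1 library per group there was no replicate and no test: each difference below compares these libraries, not the diets, and every interval is a 95% interval for counting error only.

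Pdcd1 (encoding PD-1), Lag3, Havcr2 (TIM-3), Tigit, Ctla4 and Cd160 encode receptors that meet a ligand on the tumor cell or the antigen-presenting cell and lower signalling from the T cell receptor or from costimulation. Entpd1 encodes CD39, an enzyme of the cell surface that degrades extracellular ATP on the path to adenosine, and Cd101 encodes an inhibitory receptor used as a marker of late dysfunction. In tumors, CD8+ T cells that meet antigen for a long time come to carry several of these receptors at once. A freshly activated cell also makes several of them for a while.

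The genes lie on 6 chromosomes. In GRCm38, Pdcd1 spans 94038305 to 94052553 on the minus strand of chromosome 1 and Ctla4 spans 60887000 to 60915832 on its plus strand. Lag3 lies on chromosome 6 (124904361 to 124911705, minus strand), Havcr2 on chromosome 11 (46454935 to 46481255, plus strand), Tigit on chromosome 16 (43648867 to 43664146, minus strand) and Entpd1 on chromosome 19 (40612366 to 40741602, plus strand). Cd160 (96798763 to 96829351) and Cd101 (100993529 to 101029556) are both on the minus strand of chromosome 3. Promoter sequences from RefSeq (GRCm38.p6) matched 7 of the 8 genes; Lag3 had no entry. Of these, 3 are shown because they belong to a receptor that was lower in the obese library by less than 0.5 (Pdcd1), one that was lower by more (Havcr2) and one that was higher (Ctla4), on the log2 scale. Each line gives the 250 bases before the transcription start of the RefSeq entry, 5′ to 3′ on the strand of the gene. The gene spans above come from another annotation, and the RefSeq start of Ctla4 lies inside its span. Capitals mark the core of the NFAT motif (GGAAA), the AP-1 motif (TGANTCA) and the RUNX motif (TGNGGT), on either strand.

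Pdcd1, chr1:94052554-94052803, minus strand: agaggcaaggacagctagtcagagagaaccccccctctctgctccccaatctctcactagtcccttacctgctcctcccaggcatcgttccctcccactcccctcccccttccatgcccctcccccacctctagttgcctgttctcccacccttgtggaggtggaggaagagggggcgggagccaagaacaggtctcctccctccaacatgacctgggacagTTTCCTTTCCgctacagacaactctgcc
Havcr2, chr11:46454681-46454930, plus strand: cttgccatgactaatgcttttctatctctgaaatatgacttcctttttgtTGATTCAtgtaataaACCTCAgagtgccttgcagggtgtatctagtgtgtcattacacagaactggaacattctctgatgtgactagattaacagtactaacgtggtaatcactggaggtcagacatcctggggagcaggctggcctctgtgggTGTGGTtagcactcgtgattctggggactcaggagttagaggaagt
Ctla4, chr1:60908775-60909024, plus strand: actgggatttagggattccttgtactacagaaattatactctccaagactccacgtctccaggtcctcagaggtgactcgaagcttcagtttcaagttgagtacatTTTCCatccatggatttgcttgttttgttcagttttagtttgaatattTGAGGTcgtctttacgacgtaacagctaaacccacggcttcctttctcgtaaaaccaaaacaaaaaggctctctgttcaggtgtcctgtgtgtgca

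The 7 genes had 9 promoters, as Cd160 and Entpd1 have 2 each. The NFAT core was in 6 of the 9 and in 55.6% of 32851 promoters of the same length. The RUNX letters were in 7 of the 9 and in 40.1% of all promoters. Havcr2 alone among the 9 held the AP-1 letters, which 6.75% of all promoters held. The interferon-stimulated response element (in 2.98% of all promoters) was in none of the 9. A match of letters is a description and not a site of binding.

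Of the 8 receptors, 6 had fewer UMIs per 1000000 UMIs of the library (CPM) in the obese library, and Ctla4 had more. Cd101 kept no direction. Summed over the 8 genes, the level was 855 CPM (845 to 866) in the lean and 607 CPM (598 to 616) in the obese library, a log2 ratio of -0.49 (-0.52 to -0.47). Pdcd1 stood at 205 CPM (199 to 210) in the lean and 146 CPM (141 to 150) in the obese library. Its log2 ratio was -0.49 (-0.55 to -0.43). Lag3, whose protein binds MHC class II and other ligands, stood at 278 CPM (271 to 284) against 150 CPM (146 to 155). That log2 ratio of -0.89 (-0.94 to -0.83) was the lowest of the 8. Havcr2 stood at 99.5 CPM in lean and 55.2 CPM in obese cells, with a log2 ratio of -0.85 (-0.94 to -0.76).

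**Figure D1:**
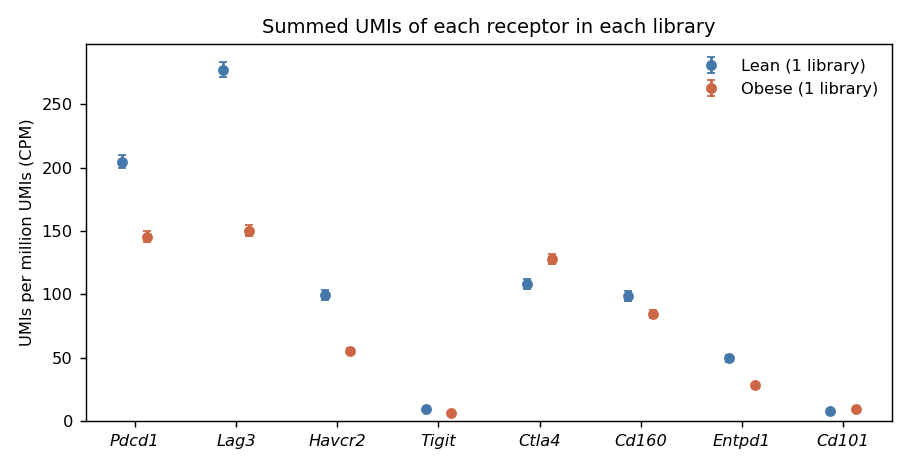
Level of each receptor in each library, as UMIs per 1000000 UMIs; points are the 2 libraries and bars are exact Poisson intervals for counting error. Pdcd1, Lag3, Havcr2, Tigit, Cd160 and Entpd1 were lower in the obese library and Ctla4 (108 against 128 CPM) was higher, while Cd101 was near the floor of the plot in both.

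Entpd1 followed the same direction, at 49.4 CPM in lean and 28.3 CPM in obese cells with a log2 ratio of -0.81 (-0.93 to -0.68). Tigit, a receptor for the poliovirus receptor, was scarce at 9.71 and 6.17 CPM, with a log2 ratio of -0.65 (-0.94 to -0.38) from 270 and 177 UMIs. Cd160, whose protein binds the herpesvirus entry mediator, differed least among the 6 that were lower, at 98.7 against 84.2 CPM and a log2 ratio of -0.23 (-0.31 to -0.15).

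Ctla4, which competes with the costimulatory receptor CD28 for its ligands, went the other way. It stood at 108 CPM (104 to 112) in lean and 128 CPM (124 to 132) in obese cells, a log2 ratio of 0.24 (0.17 to 0.31). Cd28 itself had a log2 ratio of 0.45 (0.39 to 0.50), at 183 and 249 CPM. Cd101 rested on 209 and 271 UMIs, with a log2 ratio of 0.33 (0.06 to 0.60) that was -0.01 as a mean over cells, so no direction is given for it. Regulatory T cells also express Ctla4, and the 4 markers of CD4+ and regulatory T cells summed to 23.9 CPM in lean and 22.6 CPM in obese cells, with none at 0. Most of each sum came from Il2ra (18.6 and 17.4 CPM). Foxp3, the defining factor of regulatory T cells, had a UMI in 0.774% of lean and 0.743% of obese cells.

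Among the 7060 genes with at least 10 CPM in 1 library, 1.84% were at least 0.5 lower on the log2 scale in the obese library and 2.45% were at least 0.5 higher, around a median of 0.04. Of the 6 receptors at 10 CPM or more, Lag3, Havcr2 and Entpd1 (3 of 6) were past the lower limit and 0 of 6 were past the higher one. Pdcd1 stood just inside the limit at -0.49. General T cell transcripts are given for comparison, though they do not tell T cell content apart from the mix of clusters. All 7 of these (3 CD3 chains, Trac, both CD8 chains and Lck) had log2 ratios between -0.24 and -0.05, none past 0.5.

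Macrophages and dendritic cells also express Havcr2, Entpd1 and Lag3. The 9 macrophage or monocyte markers summed to 649 CPM in lean and 605 CPM in obese cells with none at 0, mostly from Ly6c2, which CD8+ T cells also express. Csf1r or Adgre1, which define macrophages, had a UMI in 0.163% of lean and 0.568% of obese cells. These markers did not move alike either: Lyz2 was lower in the obese library, at 10.0 and 3.14 CPM (log2 ratio -1.68). C1qb (2.80 and 5.12 CPM) and Apoe (1.83 and 8.57 CPM) were higher. The 9 dendritic markers summed to 527 and 556 CPM, none at 0, and also differed in direction. Of the 7 at 10 CPM or more, 4 were higher by at least 0.5 in the obese library (H2-Aa at 1.93, H2-Ab1, H2-Eb1 and Cd74) and 1 was lower (Irf8 at -0.69). The cell filter given below uses no dendritic marker. An alternative left out clusters 4, 5 and 6, described below, of which cluster 6 was dendritic-like. The log2 ratio was then -0.84 for Lag3, -0.89 for Havcr2, -0.81 for Entpd1 and 0.29 for Ctla4. The part of dendritic cells in other clusters was not tested. The 7 markers of natural killer or gamma delta T cells, which can carry Tigit and Cd160, summed to 54.4 and 79.6 CPM. Most of each sum came from Eomes (29.3 and 50.8 CPM), which CD8+ T cells also express, and Tyrobp (17.9 and 23.1 CPM). Markers of this list differed in direction. Ncr1 or Klrb1c had a UMI in 1.67% of lean and 0.786% of obese cells, and Ncr1 and Klra4 were at 0 in the obese library. Trdc had 44 lean and 86 obese UMIs, and Tcrg-C1 had 47 and 52. In cells with a UMI of Cd8a or Cd8b1 and none of Cd4, Cd79a, Lyz2 or Pmel (2306 lean and 2159 obese cells), the log2 ratio was -0.92 for Lag3, -0.85 for Havcr2 and 0.23 for Ctla4.

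Most receptor UMIs came from a pair of clusters, whose cells were also the deepest. Cells were clustered without the 8 receptors, and the clusters were called by marker genes: 0 interferon-stimulated-like, 1 proliferating-like, 2 naive- or memory-like and 3 effector-like. The top genes of cluster 4 were hemoglobin genes, whose UMIs there came from 2 of its 190 obese cells, and then the noncoding transcripts Gm26917 and Rmrp. Cluster 4 had a median of 2501 UMIs in lean and 3007 in obese cells, and was left unnamed. Cluster 5 (85 cells) was also unnamed, and cluster 6 (30 cells) was dendritic-like. Clusters 1 and 3 together held 92.7% of the Pdcd1 UMIs of the lean library and 88.0% of those of the obese one, and 92.4% and 86.9% of the Havcr2 UMIs. Ctla4 was spread more widely, with 78.2% and 69.9% in those clusters and 9.79% and 20.5% in cluster 0. Cd101 had 60.3% and 59.4% in clusters 1 and 3. As CPM, which allows for depth, Pdcd1 stood at 267 and 196 in clusters 1 and 3, against 205 and 146 in all cells. Ctla4 there was little above its level in all cells (119 and 137 against 108 and 128), and Cd101 was below its own (6.38 and 8.58 against 7.51 and 9.44). Shares of UMIs also move with the size of a cluster, and cluster 0 held 461 lean and 706 obese cells. Ctla4 stood at 116 and 146 CPM in cluster 0. The 8 summed were highest in cluster 4, at 1870 and 1109 CPM, beside 1320 and 1053 in cluster 3. Cluster 6, whose plasmacytoid dendritic cells are known to express Lag3, held 0.389% and 1.51% of the Lag3 UMIs.

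To compare cells of unequal depth, each cell was thinned at random to 4000 UMIs, which left 2073 lean and 2030 obese cells and left out 383 and 259 shallower ones. This cut fell unevenly on clusters and libraries. It kept 339 of 461 lean and 640 of 706 obese cells of cluster 0. In cluster 3 it kept 622 of 626 and 305 of 306, and in cluster 4 it kept 62 of 281 and 69 of 190. At this depth Pdcd1 had a UMI in 36.2% of lean and 28.1% of obese cells, Lag3 in 44.2% and 29.1%, and Havcr2 in 21.6% and 12.1%. Ctla4 was in 28.6% and 33.5%, Cd160 in 24.8% and 20.2%, Entpd1 in 13.4% and 9.56%, Tigit in 3.04% and 2.27%, and Cd101 in 3.23% and 3.20%. Before thinning, Lag3 was in 55.6% and 45.8% of cells, Havcr2 in 35.1% and 26.6%, and Ctla4 in 48.4% and 55.05%. Naive or memory cells should lack most of the receptors, so the share of cluster 2 with a UMI was taken as the background. Empty droplets were not analysed here, and such cells can themselves express Ctla4 and Cd160. Median depths before thinning were 7466 and 7842 UMIs in cluster 2 and 11138 and 13869 UMIs in cluster 3, lean first. In cluster 2, Pdcd1 had a UMI in 1.06% of lean and 0.474% of obese cells, and Havcr2 in 0.353% and in 0 of 422 cells (which allows a share of up to 0.870%). Lag3 stood there at 2.47% and 3.55%. In cluster 3, the shares were 63.0% and 50.2% for Pdcd1, 80.1% and 62.0% for Lag3, and 41.2% and 25.6% for Havcr2.

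**Figure D2:**
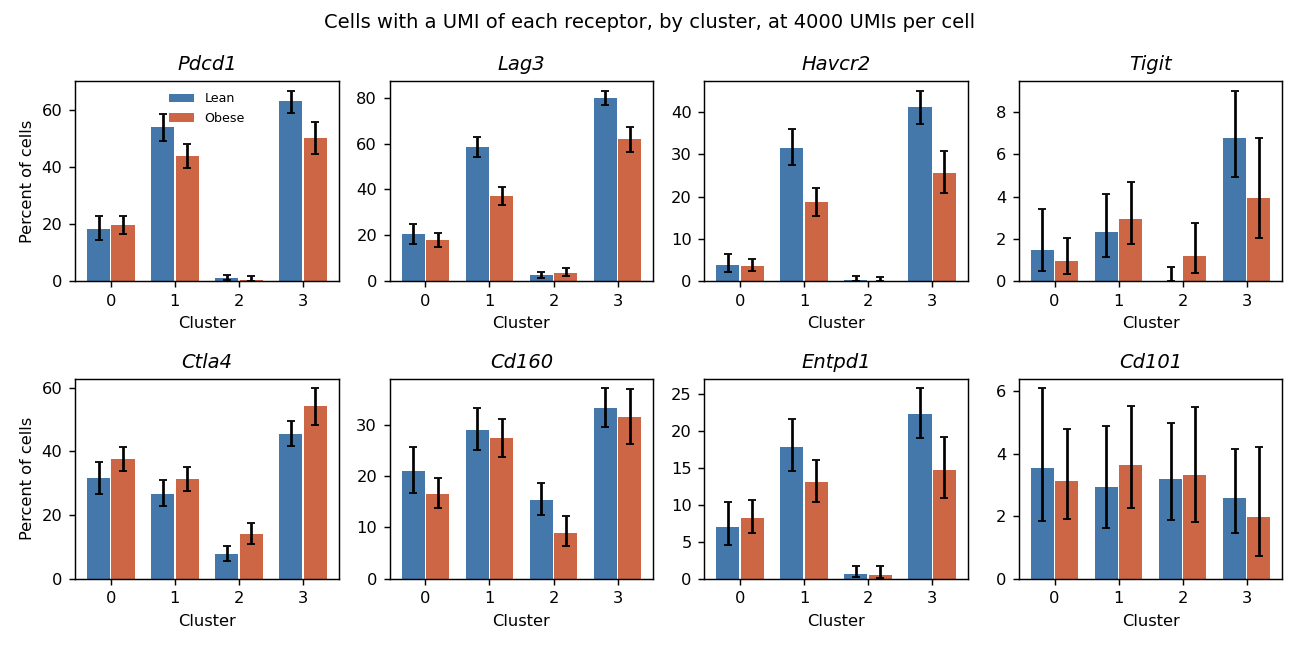
Percent of cells with a UMI of each receptor in clusters 0 to 3 of the lean and obese libraries, after thinning to 4000 UMIs per cell; bars carry exact binomial intervals for counting error, and the vertical scale differs between receptors. Lag3 and Havcr2 were lower in the obese library in clusters 1 and 3, and Ctla4 was higher in clusters 0 to 3.

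Proliferating-like cells showed the same order of libraries, with Lag3 in 58.5% of lean and 37.1% of obese cells and Havcr2 in 31.6% and 18.6%. Pdcd1 there was in 53.9% and 43.9%. In cluster 0 the libraries were close: Pdcd1 was in 18.3% of lean cells and 19.7% of obese cells while its CPM was lower in obese cells (75.5 against 60.7), so no order is read from it. Ctla4 had a UMI in 7.77% of lean and 14.0% of obese cells of cluster 2. The lean library had 115 Ctla4 UMIs beside 32 of Lag3 in cluster 2, but 1359 beside 3747 in cluster 3, so the 2 genes did not keep 1 ratio. Cd160 was in 15.4% and 9.0% of cluster 2 cells. Cd101 was in 3.18% and 3.32% of cluster 2 and in 2.57% and 1.97% of cluster 3, with 3.54% and 3.12% in cluster 0 and 2.95% and 3.66% in cluster 1. The counting intervals of these shares overlap, so the Cd101 shares of these clusters were not told apart. In the lean library Cd101 had 28 UMIs beside 32 of Lag3 in cluster 2, but 60 beside 3747 in cluster 3. These genes did not keep 1 ratio either, and the part of free RNA in the Cd101 shares was not tested.

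Within clusters the direction of each ratio could be read apart from the mix of clusters, though a mix of cells inside a cluster can remain. Ctla4 was higher in the obese library in clusters 0, 1, 2 and 3, with log2 ratios of 0.33, 0.32, 0.64 and 0.43 and counting intervals above 0. The gap in thinned shares was no larger in cluster 0 (31.6% and 37.5%) and cluster 1 (26.7% and 31.2%) than in cluster 2. Only in cluster 3 (45.5% and 54.1%) was it larger. Cells of cluster 2 can express Ctla4 themselves, so the part of free RNA in these gaps was not told apart. In cluster 4 Ctla4 was lower in the obese library, at -0.51 (-0.80 to -0.22). Lag3 was lower in clusters 0, 1, 3 and 4, with log2 ratios of -0.30, -0.76, -0.53 and -1.31. Havcr2 was lower in clusters 1 and 3 at -0.59 and -0.95, and at -0.11 (-0.76 to 0.55) in cluster 0. Entpd1 had its lowest ratio in cluster 3, where it stood at 75.1 CPM in lean and 36.1 CPM in obese cells, a log2 ratio of -1.05 (-1.31 to -0.81). Cd160 varied between clusters, at -0.87 (-1.21 to -0.54) in cluster 2, -0.12 in cluster 1 and 0.10 (-0.04 to 0.24) in cluster 3.

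**Figure D3:**
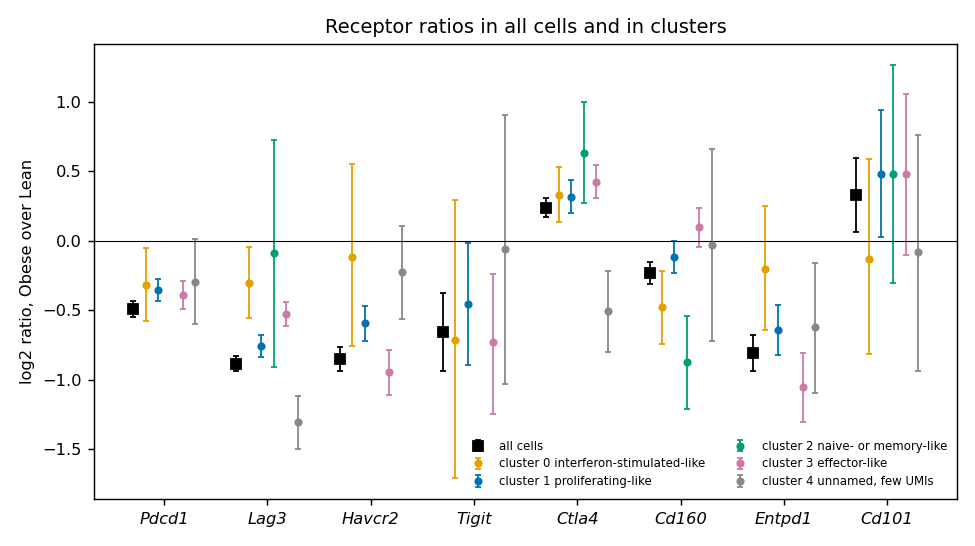
Log2 ratio of each receptor, obese over lean, in all cells (squares) and in clusters 0 to 4 (circles), with exact conditional intervals for counting error; ratios from fewer than 30 UMIs over both libraries are not drawn. Ctla4 lies above 0 in all cells and clusters 0 to 3 and below 0 in cluster 4, while Lag3 lies below 0 in each, with an interval that includes 0 in cluster 2.

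The cells were not mixed alike. Effector-like cells numbered 626 in the lean and 306 in the obese library, and interferon-stimulated-like cells 461 and 706. The genes that define cluster 3 differed between the libraries, the 10 effector markers summing to 6023 CPM in lean and 3537 CPM in obese cells, so these sizes are given only as context. When both libraries were weighted to the same mix of clusters, the log2 ratio was -0.68 for Lag3, -0.69 for Havcr2, -0.36 for Pdcd1 and 0.33 for Ctla4. For the 8 receptors summed it was -0.35.

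Lean cells carried more of the receptors at once. At 4000 UMIs per cell, the mean was 1.75 receptors in the lean and 1.38 in the obese library, a difference of -0.37 (-0.45 to -0.29). That interval takes each detection as an independent count, and because receptors were found together it is too narrow. At least 3 receptors were found in 33.4% (31.4 to 35.5) of lean and 19.5% (17.8 to 21.3) of obese cells. The share with at least 1 receptor was closer, at 72.2% and 67.8%. Exactly 1 receptor was found in 20.8% of lean and 27.2% of obese cells, and exactly 3 in 19.8% and 11.8%. The most in any thinned cell was 7 in the lean and 6 in the obese library. At this depth 0 thinned cells held all 8, which allows a share of up to 0.178% and 0.182%. As deposited, before thinning, the means were 2.75 and 2.46 and the shares with 3 or more 50.4% and 43.4%. All 8 receptors then had a UMI in 11 lean (0.448%) and 5 obese cells (0.218%).

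**Figure D4:**
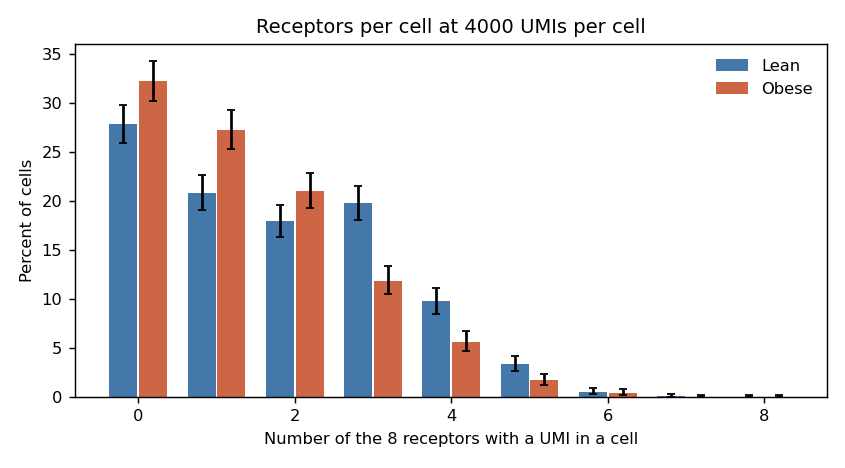
Percent of cells by the number of the 8 receptors with a UMI, after thinning to 4000 UMIs per cell, in the lean (2073 cells) and obese (2030 cells) libraries; bars carry exact binomial intervals for counting error. The obese library is higher at 0, 1 and 2 receptors and the lean library at 3, 4 and 5. The intervals overlap at 2 and from 6 on.

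In number of receptors the libraries differed in clusters 1 and 3 and were close in clusters 0 and 2. Effector-like cells had a mean of 2.95 receptors in the lean and 2.44 in the obese library, and 3 or more in 66.6% (62.7 to 70.3) and 46.9% (41.2 to 52.7). Proliferating-like cells had means of 2.23 and 1.78, with 3 or more in 41.9% and 25.8%. Interferon-stimulated-like cells had 1.07 and 1.08, and naive- or memory-like cells 0.31 and 0.32. The few cells of cluster 4 that were deep enough (62 lean and 69 obese) had 3.10 and 2.74. Weighted to the same mix of clusters, the means were 1.67 and 1.43. The number also moved with the depth a cell had before thinning: it was 1.23, 1.6 and 2.43 in the lowest, middle and highest tercile of lean cells, and 1.07, 1.19 and 1.88 in those of obese cells. The part of depth in the difference was not tested beyond the thinning.

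A total of 118 of the 255 possible combinations of receptors occurred in lean cells and 112 in obese cells. After no receptor at all (27.8% and 32.2% of cells), the most common was Cd160 alone in the lean library (6.46%) and Ctla4 alone in the obese library (9.46%). Pdcd1 and Lag3 with no other receptor made up 4.34% of lean and 3.35% of obese cells. Pdcd1, Lag3 and Havcr2 together, with or without others, were in 10.6% (9.27 to 12) of lean and 3.65% (2.87 to 4.55) of obese cells.

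Most pairs of receptors were found together more often than the product of their shares gives. Over the 28 pairs, the median ratio of cells with both to that product was 1.37 in the lean and 1.46 in the obese library. In these libraries 23 and 25 pairs were above 1. Some counting intervals include 1, as for Lag3 and Cd101 in lean cells (1.05, 0.71 to 1.48). Pairs of other genes were not computed for comparison. Within clusters, where the expected number was summed cluster by cluster, the medians were 1.03 and 1.19, with 17 and 22 pairs above 1. Havcr2 and Entpd1 had a ratio of 2.07 (1.72 to 2.47) in lean cells from 124 cells with both, and of 2.09 (1.55 to 2.77) in obese cells from 49. That pair kept ratios of 1.30 and 1.33 within clusters. Pdcd1 and Lag3 had ratios of 1.63 and 1.73, and 1.07 and 1.21 within clusters.

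**Figure D5:**
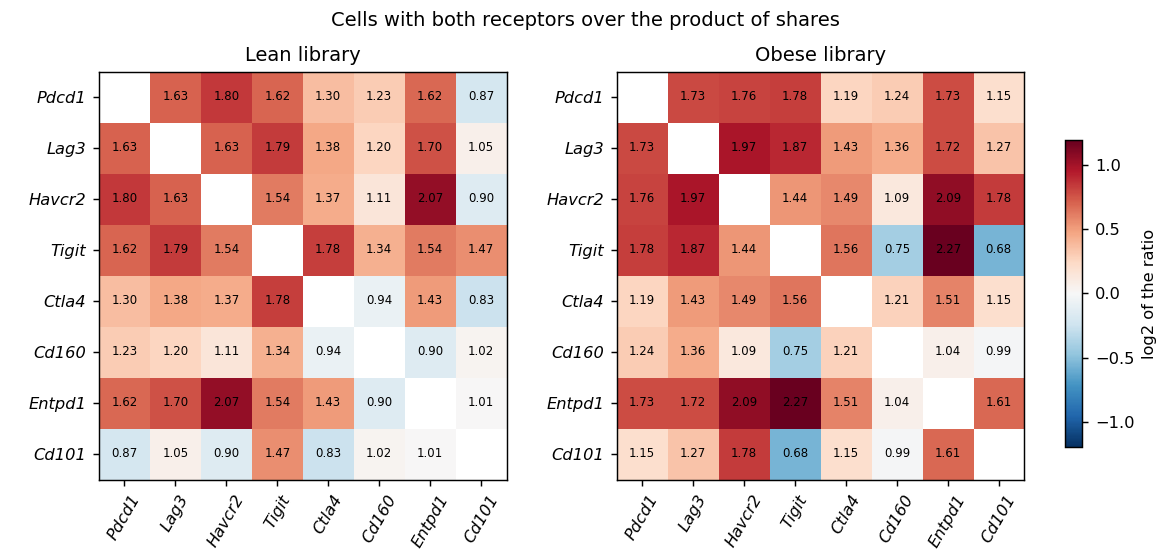
Cells with both receptors divided by the product of the shares, for each pair in the lean and obese libraries at 4000 UMIs per cell; the number in each square is the ratio and the color its log2. Havcr2 with Entpd1 reaches 2.07 and 2.09, while pairs with Cd160 lie nearer to 1; pairs of Tigit and Cd101 rest on few cells.

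Pairs with Cd160 varied. Cd160 and Entpd1 had ratios of 0.90 and 1.04, and 0.76 and 0.88 within clusters, and Cd160 and Ctla4 had 0.94 (0.79 to 1.11) in lean and 1.21 (1.04 to 1.41) in obese cells. Of the cells with Cd160, 26.0% of lean and 27.5% of obese cells had no other receptor, beside 18.4% and 28.2% for Ctla4 and 31.3% and 29.2% for Cd101. Havcr2 was seldom alone, in 4.46% and 6.53% of its cells. Of lean cells with Havcr2, 72.1% also had Lag3 and 65.0% Pdcd1, whereas 35.2% of cells with Lag3 and 38.8% of those with Pdcd1 had Havcr2. In obese cells these shares were 57.1% and 49.4% against 23.7% and 21.2%. Such shares move with how common each receptor was. As ratios to the product of shares, Lag3 with Havcr2 stood at 1.63 (1.46 to 1.82) in lean and 1.97 (1.65 to 2.32) in obese cells. These intervals overlap, and within clusters the ratios were 1.02 and 1.19. Pdcd1 with Havcr2 stood at 1.80 and 1.76, and at 1.12 and 1.13 within clusters. Cells with Pdcd1 had a mean of 2.08 other receptors in the lean and 1.61 in the obese library, and cells without it had 1.0 and 0.90.

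Tcf7, a transcription factor of naive, memory and progenitor-like T cells, was rarely found with Pdcd1. Both were in 37 lean cells (1.78%), where the product of the shares gives 177, and in 44 obese cells (2.17%), where it gives 129. Cells with Tcf7 carried a mean of 0.56 receptors in lean and 0.72 in obese cells, against 2.12 and 1.57 in those without it. The means were high with Tnfrsf9, a costimulatory receptor induced by activation (2.60 and 2.15, against 1.33 and 1.14 without it), and with Tox, a transcription factor of the exhaustion program (2.53 and 1.95, against 1.5 and 1.11). With Gzmb, the cytotoxic protease granzyme B, they were 2.45 and 1.83, against 0.94 and 1.02. Other genes of the same kinds went the other way. Among transcription factors tied to exhaustion, the means were lower with Nr4a1 (1.28 and 1.15, against 1.81 and 1.42), Nfatc2, Id3 and Foxo1. With Eomes the mean was lower in lean cells alone. Among cytotoxic genes, it was lower with Lamp1 (1.44 and 1.14, against 1.83 and 1.44), and in obese cells alone with Gzma and Ctsw. With Cd28 in lean cells the mean was 1.76, beside 1.74 without it. The points here are cells of the same libraries, and detection of any 2 genes shares the depth and state of the cell.

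Across 4103 thinned cells of both libraries and 5813 genes, the correlation with the number of receptors was highest for S100a4 (Pearson r = 0.47), Lgals1 (0.46), Ptms (0.45), Gapdh (0.44) and Rgs16 (0.44). S100a4 encodes a calcium-binding protein, Lgals1 galectin-1, Ptms parathymosin, Gapdh a glycolytic enzyme and Rgs16 a regulator of G protein signalling. Gzmb, AW112010, Anxa2, Rbpj and Bcl2a1b followed, between 0.41 and 0.42. It was lowest for Rps24 (-0.51), a ribosomal protein gene, and Klf2 (-0.50), a quiescence factor, was also among the lowest. For single receptors, Lag3 was most like Ptms (0.44), Rgs16 and Rbpj. Ptms lies next to Lag3 on the same strand of chromosome 6, with 1975 bases between the genes, and how reads of one could reach the other was not tested. Pdcd1 was most like Lgals1 (0.38), Gapdh and S100a4. Havcr2 was most like Prf1 (0.37), which encodes perforin, Gzmb and Ccl3. Entpd1 was most like Gzmb (0.25), S100a4 and Prf1. Cd160 was most like the chemokine gene Xcl1 (0.31), then Bcl2a1b and Crtam, and Ctla4 like Ifi27l2a (0.23), Ptms and Bhlhe40. The highest correlation was 0.10 for Tigit and 0.07 for Cd101, which is too weak to read in sparse counts. All are descriptions over cells that share a library.

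Genes of the same pathways are given beside the shares of all genes past the limits, 1.84% lower and 2.45% higher. Of 9 other inhibitory receptors at 10 CPM or more, 2 were lower by at least 0.5 in the obese library, Klrc1 (-0.88), the NKG2A chain, and Cd244a (-0.84), which was at 10 CPM or more in the lean library alone (16.9 against 9.44 CPM). A further 2 were higher, Slamf6 (0.81) and Cd200r1 (0.71), and the median was -0.03. Among 7 ligands, Lgals3, which encodes the Lag3 ligand galectin-3, was lower at -1.10 (289 and 135 CPM), and none was higher. Cd274, encoding the PD-1 ligand PD-L1, stood at -0.26 and Cd86, a ligand of CTLA-4 and CD28, at 0.32. The median of the 7 was 0.01. Of 16 signalling genes, 1 was lower, Ptpn6 at -0.56 (174 and 119 CPM), encoding the phosphatase SHP-1, and 0 were higher. Ptpn11, encoding SHP-2, the phosphatase recruited by PD-1, stood at 0.32, and the median was 0.01.

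Of 19 transcription factors tied to exhaustion at 10 CPM or more, 6 were higher by at least 0.5 in the obese library, where 2.45% of all genes were, and 0 were lower, with a median of 0.08. The 6 were Maf (0.85), Eomes (0.79), Nr4a1 (0.78), Nr4a2 (0.67), Nr4a3 (0.64) and Bhlhe40 (0.51). Nr4a genes are also early targets of T cell receptor signalling, and Eomes is a T-box factor of memory and dysfunctional CD8+ T cells. Tox stood at 0.31 (106 and 131 CPM). Beside Entpd1, 3 genes of adenosine handling were at 10 CPM or more, and Adk, adenosine kinase, was higher at 0.52; their median was 0.18. Of 10 cytotoxic genes, 3 were lower, Gzmc (-1.79), Prf1 (-1.29) and Gzmb (-1.09), none higher, with a median of -0.28. None of the 10 costimulatory receptors (median -0.12) or the 10 quiescence genes (median 0.12) was past 0.5 in either direction, which at these shares of all genes says nothing particular about lists of 10.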

How the data were processed

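The deposited files held raw UMI counts per gene and cell for 2 libraries, made by the authors with the Chromium 3′ kit, Cell Ranger 6.0.2 and mm10 per the submitters' processing notes. Cells with under 7.5% mitochondrial UMIs and over 500 and under 50000 UMIs were kept, the limits stated in the study. The study reported 2697 lean and 2623 obese cells after its filters, which equals the number in the deposited files. Applied to those files, the limits left out 241 lean and 334 obese cells, so the cells used here are not the full set of the study. The 8 receptors and all gene lists were chosen with earlier results of these data known. Levels are UMIs per 1000000 UMIs, summed over cells (CPM), with exact Poisson intervals, and ratios carry exact conditional binomial intervals. Cells were thinned without replacement to 4000 UMIs (seed 7). Shares carry Clopper-Pearson intervals. Clusters came from Seurat 5.3.0 in R 4.3.3 (2000 variable genes without the receptors, 20 principal components, 20 neighbours). The lowest resolution in steps of 0.05 with at least 6 clusters was 0.15, which gave 7, since no step gave exactly 6. Doublets were kept: Scrublet in scanpy 1.11.5 marked 2 cells (0.0421%), too few to count as a working call. Named genes of a list had at least 10 CPM in 1 library and a log2 ratio of 0.5 or more in size, up to 4 per list by size, with named partners of the receptors beside them. Nr4a3, Bhlhe40, Tox, Tnfrsf9, Tcf7, Nfatc2, Id3, Foxo1, Lamp1, Gzma and Ctsw fell outside this and were chosen after their values were seen. Likeness names the 10 genes most correlated with receptor number and 3 per receptor, on ln(1 + UMIs) centred within libraries. The code was tested on simulated data. Gene IDs matched the GRCm38 annotation for 99.6%.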

Additional observations from a re-analysis of the deposited data

Results flagged for a closer look

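Ctla4 had opposite directions in different clusters. Its log2 ratio, obese over lean, was 0.33 in cluster 0, 0.32 in cluster 1, 0.64 in cluster 2 and 0.43 in cluster 3, but -0.51 in the unnamed cluster 4, and the difference between clusters was not tested. Cluster 4 held 281 lean and 190 obese cells, few UMIs per cell, and 9158 of the 9193 hemoglobin UMIs of the obese library, in 2 of its cells, while the lean library had 0. Cluster 4 of the obese library held 823886 UMIs in total, and the 9158 hemoglobin UMIs were a small share of that total. The part of these values in the Ctla4 ratio was not tested.

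Cells at or above 50000 UMIs were left out of the comparisons, other than the alternative with all deposited cells. Thinned to 4000 UMIs, 3 or more receptors were in 51.8% (40.6 to 62.9) of 83 lean and 27.3% (19.6 to 36.1) of 121 obese cells of this kind, with means of 2.55 and 1.91. The part of doublets in these cells was not tested.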

How the results depend on the processing

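No paired analysis was possible because each group had 1 library, and leaving out a replicate was not possible for the same reason. Over the alternatives tried, the log2 ratio stayed below 0 for the 8 receptors summed, Pdcd1, Lag3, Havcr2, Tigit, Cd160 and Entpd1, and above 0 for Ctla4 (0.20 to 0.39). Cd101 reversed to -0.0055 as a mean over cells. The ratio of the 8 summed was -0.35 with the same mix of clusters and -0.59 as a mean over cells. The difference in mean number of receptors, obese minus lean, was -0.63 in the effector-like and proliferating-like clusters, -0.28 at 2000 UMIs, -0.75 at 8000 UMIs, -0.22 with at least 2 UMIs per receptor and -0.24 with the same mix of clusters. The difference in percent with 3 or more receptors was -22.8, -7.24, -21.0, -2.03 and -9.01 in that order, and -6.99 with no thinning, against -13.9. Median log2 co-detection was 0.46 in lean and 0.55 in obese cells. In the effector-like and proliferating-like clusters it was 0.041 in lean and 0.21 in obese cells, and within clusters 0.036 and 0.25. It was 0.30 in lean and 0.34 in obese cells at 8000 UMIs, and 0.90 and 1.2 with at least 2 UMIs. In the effector-like cluster the ratio of the 8 summed was -0.33, and -0.27 with finer clusters (10 in place of 7). With finer clusters, that of Havcr2 went from -0.95 to -0.62, Pdcd1 from -0.39 to -0.24, Lag3 from -0.53 to -0.45 and Ctla4 from 0.43 to 0.33. Of 89 listed partner genes, 16 were past the limits (7 lower, 9 higher), where 1.84% of all genes were lower and 2.45% higher. At 50 CPM it was 9 of 56 (6 lower, 3 higher), and at a fold of 0.3 it was 31 of 89. The shares of all genes were not computed at those alternative limits, so nothing is read from these counts. The causes were not tested, apart from those set by the alternatives themselves. With 1 library per group, the spread between mice is unknown. At 4000 UMIs a cell with few transcripts of a receptor can show none, while free RNA can add detections, and Tigit and Cd101 were near the limit of detection.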
